A study of Homo sapiens with 2 samples.

Results

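The genes described here are 9 around the supply of cytosolic acetyl-CoA and malonyl-CoA to fatty acid synthase, the synthase itself among them. They are FASN, ACACA, ACACB, ACLY, ACSS2, SLC25A1, ME1, MCAT and MID1IP1, chosen by symbol from a table of 28038 listed genes. Each symbol had a single gene ID, so no rows had to be added, and all 9 had at least 50 counts over both libraries, the minimum for a measured gene. In all 14157 genes were measured. The samples were 2 cultures of OVCAR-3, a long-established line from a human ovarian carcinoma. One carried a blank viral vector (control cells), and the other overexpressed IGF2BP3, an RNA-binding protein that reads the m6A mark on messenger RNA (IGF2BP3 cells). The sources used here do not state the promoter, the clonality or the time after transfection. There was 1 library in each group, so every difference is between these libraries, no test between conditions was possible, and all intervals cover counting error only.

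Fatty acids are built in the cytosol from acetyl-CoA and malonyl-CoA. Acetyl-CoA cannot cross the inner mitochondrial membrane, so citrate is exported by the carrier SLC25A1 and split by ACLY into acetyl-CoA and oxaloacetate. ACSS2 makes acetyl-CoA from acetate instead. The acetyl-CoA carboxylases ACACA and ACACB carry out the committed step to malonyl-CoA, and FASN then condenses these units into palmitate with NADPH, part of which comes from malic enzyme ME1. ACACA acts in the cytosol, whereas ACACB sits at the mitochondrial surface, where its malonyl-CoA restrains the entry of fatty acids through CPT1. MID1IP1 promotes the polymerisation of the carboxylase. MCAT is the malonyl transferase of the separate mitochondrial fatty acid pathway, a step that FASN performs with a domain of its own. FASN is the gene that the study's title names as regulated by IGF2BP3, and many carcinomas make fatty acids at a high rate.

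Sequencing depth was 43190215 counts for control cells and 48017861 for IGF2BP3 cells. IGF2BP3 had 2944 counts in control cells and 6376 in IGF2BP3 cells, a ratio of 1.96 (95% interval 1.88 to 2.05). Ratios are of library-size-scaled counts (CPM) after TMM scaling, overexpression over control, with exact Clopper-Pearson intervals computed on the 2 counts of a gene. Even values were in surplus among counts of 1 to 20, at 64.1% for control cells and 63.3% for IGF2BP3 cells. Intervals from halved counts are therefore given too, as for read pairs counted by both mates. Several markers of the labelled cell type were low. Of 9 chosen epithelial markers 8 were among the listed genes, all but KRT7, and 4 were measured. KRT18 had 4460 and 4871 counts, MUC1 372 and 376, KRT8 187 and 185, and EPCAM 57 and 56. Those not measured were CLDN4, with 18 and 27, CDH1, with 2 in each library, and KRT19 and CLDN3, each with 2 and 0. PAX8, a marker of ovarian serous carcinoma, had 28 and 32. Among 8 mesenchymal markers 7 were measured, and VIM was high, at 94249 and 102841 counts, with ZEB1 at 2475 and 2819. The rest were lower. CDH2 had 566 and 597 counts, FN1 131 and 113, COL3A1 80 and 86 and COL1A1 73 and 66. TWIST1 had 45 and 31, and SNAI2, which was not measured, 4 and 6. Whether the cultures match the line they are labelled as was not tested. Of 8 chosen markers of ovarian serous carcinoma 3 were among the listed genes, and PAX8 was the only measured one. None of the 7 chosen leukocyte and endothelial markers was measured. In bulk RNA a lower share of expressing cells and less transcript per cell cannot be told apart.

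The regions before the annotated starts of several of these genes are shown because gene counts add up transcripts from every start of a gene. RefSeq (GRCh38.p14) gave 14 such windows of 250 bases for 8 of the 9 genes, all but FASN. Below are all 3 windows of ACACA, the gene with the largest difference, both windows of ACSS2, the next largest, and that of MID1IP1. Capitals mark matches, on either strand, to 4 motifs: TCACNCCAC, the core of a sterol regulatory element; CACGTG, an E-box; CCAAT, the NF-Y box; and GGGCGG, the GC box of Sp1. Runs of capitals longer than a motif are overlapping or adjoining GC boxes. The ACACA windows lie on the minus strand at chr17:37406837-37407086, chr17:37359097-37359346 and chr17:37299768-37300017. Those of ACSS2 lie on the plus strand at chr20:34874739-34874988 and chr20:34876362-34876611, and that of MID1IP1 on the plus strand at chrX:38801209-38801458.
ACACA first start: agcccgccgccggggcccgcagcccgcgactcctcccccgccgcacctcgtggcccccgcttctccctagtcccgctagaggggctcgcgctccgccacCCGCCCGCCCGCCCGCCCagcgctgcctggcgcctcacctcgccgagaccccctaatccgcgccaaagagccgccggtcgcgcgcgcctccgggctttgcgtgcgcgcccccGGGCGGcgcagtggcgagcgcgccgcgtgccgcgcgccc
ACACA second start: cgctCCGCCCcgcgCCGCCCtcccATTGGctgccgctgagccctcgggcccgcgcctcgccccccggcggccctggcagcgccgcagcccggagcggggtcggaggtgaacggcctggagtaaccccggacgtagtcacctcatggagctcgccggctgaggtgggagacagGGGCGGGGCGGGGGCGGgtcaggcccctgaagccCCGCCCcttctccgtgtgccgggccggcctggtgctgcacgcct
ACACA last start: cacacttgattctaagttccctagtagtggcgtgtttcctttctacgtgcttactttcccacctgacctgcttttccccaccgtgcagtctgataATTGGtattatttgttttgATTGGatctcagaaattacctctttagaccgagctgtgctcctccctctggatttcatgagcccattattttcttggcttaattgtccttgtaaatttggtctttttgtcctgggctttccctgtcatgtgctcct
ACSS2 first start: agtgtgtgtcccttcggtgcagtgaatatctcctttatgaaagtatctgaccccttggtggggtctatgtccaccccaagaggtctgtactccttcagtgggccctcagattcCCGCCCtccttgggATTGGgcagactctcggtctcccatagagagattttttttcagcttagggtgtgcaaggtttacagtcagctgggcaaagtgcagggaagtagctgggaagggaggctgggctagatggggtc
ACSS2 second start: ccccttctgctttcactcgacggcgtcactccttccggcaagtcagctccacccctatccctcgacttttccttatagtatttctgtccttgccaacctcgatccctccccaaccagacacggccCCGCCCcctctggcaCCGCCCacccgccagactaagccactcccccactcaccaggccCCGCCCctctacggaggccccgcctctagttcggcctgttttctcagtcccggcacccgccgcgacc
MID1IP1 start: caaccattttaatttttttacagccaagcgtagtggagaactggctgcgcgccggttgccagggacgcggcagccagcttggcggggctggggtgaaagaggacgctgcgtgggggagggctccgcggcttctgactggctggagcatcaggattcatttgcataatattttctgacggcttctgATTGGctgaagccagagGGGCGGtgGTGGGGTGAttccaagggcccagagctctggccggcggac

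The ACACA windows differ from each other in composition. The windows before the first and second start have a GC content of 81.6% and 78% and hold 5 and 6 GC boxes. The window before the last start has 43.6% GC, no GC box and 2 inverted CCAAT boxes. The deposited counts do not tell these starts apart. Among the 14 windows, the sterol element core was found in 1, that of MID1IP1, where it lies inverted at bases -40 to -32 before the start; 0.883% of 35116 RefSeq windows of the same length hold it. The E-box was found in none of the 14 and in 6.34% of all windows. The CCAAT box was found in 8 of the 14 and in 32% of all, and the GC box in 12 of the 14 and in 42.6% of all. Both windows of MCAT, and both of ACLY, overlap and share boxes; by gene, the CCAAT box was found for 6 of the 8 and the GC box for all 8. A match says only that these letters occur there.

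Levels were compared between genes as FPKM, a level per gene length and sequencing depth, as deposited by the authors. They ran from 0.676 to 103 FPKM over the 9 genes and both libraries. ACLY stood highest, at 90.3 FPKM in control cells and 103 in IGF2BP3 cells. Next came FASN at 54.9 and 59.4 FPKM, SLC25A1 at 54.7 and 57.1, and ME1 at 53.8 and 67.2. In control cells these 3 could not be ordered, since neighbouring intervals overlapped. In IGF2BP3 cells ME1 stood above the other 2. FASN and SLC25A1 could be ordered there by the counts as deposited, but with halved counts their intervals, 58.4 to 60.4 and 55.0 to 59.3 FPKM, overlapped. ACSS2 followed at 13.6 and 17.8 FPKM, MID1IP1 at 10.6 and 10.1, and MCAT at 7.62 and 6.98. The carboxylases were lowest. ACACB was at 1.14 and 1.21 FPKM and ACACA at 0.676 and 2.95, so the order of these 2 was opposite in the 2 libraries.

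**Figure D1:**
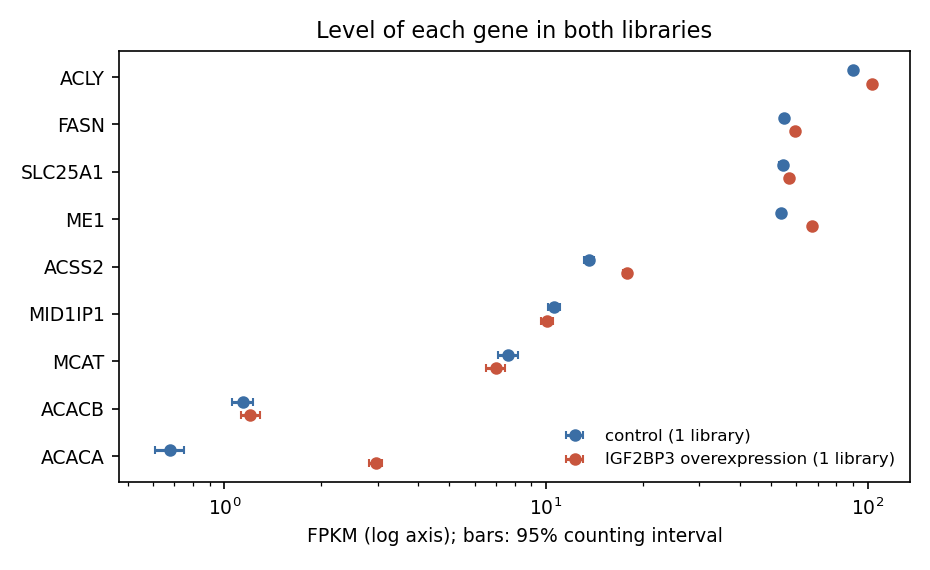
FPKM of each of the 9 genes (log axis) in control cells (blue) and IGF2BP3 cells (red), 1 library each; bars are exact Poisson 95% counting intervals. ACLY is highest in both libraries, and ACACA lies below ACACB in control cells (0.676 against 1.14) and above it in IGF2BP3 cells (2.95 against 1.21).

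Against all measured genes, whose median was 4.14 FPKM in control cells, ACLY lay above 97.4% and FASN above 95.2%. ACACB lay above 25.5% and ACACA above 18.1%; in IGF2BP3 cells ACACA lay above 42.6%. FASN thus exceeded ACACA by 81.2-fold per length in control cells and by 20.1-fold in IGF2BP3 cells. Against ACACB it was 48.2-fold and 49.3-fold higher. The ACACA level is itself uncertain: GRCh38 holds alternate versions of parts of chromosome 17, and the sources used here do not state whether reads were aligned to them or how reads with several matches were counted. Its order against ACACB, its share of the carboxylase sum and the folds of FASN over it carry that uncertainty, which was not tested.

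Of the 9 genes, 7 had a log2 ratio above 0 and 2 below, taken on CPM plus 1, a scale that shrinks differences of low genes. The median was 0.12, beside 0.00 over all measured genes, of which 51.1% lay above 0. ACACA was the 1 gene at least 1.5-fold higher, where 1.02% of measured genes were; none was 1.5-fold lower, where 0.643% were. At least 1.2-fold higher were 3 genes, ACACA, ACSS2 and ME1, beside 7.49% of measured genes, and none was 1.2-fold lower, beside 5.74%. Without ACACA the median of the other 8 was 0.11. The counting interval lay above 1 for 6 genes, and for 5 with halved counts, and below 1 for none. Over all 14157 measured genes it lay above 1 for 3228 and below 1 for 2628. With halved counts it did so for 2254 and 1547. Counting intervals are narrower where counts are high, so these numbers also depend on level. The 9 genes had a median of 13.6 FPKM in control cells, beside 4.14 over all measured genes. No gene changed direction when scaled by total counts or with the size factors of DESeq2, with another pseudocount or with FPKM plus 1.

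**Figure D2:**
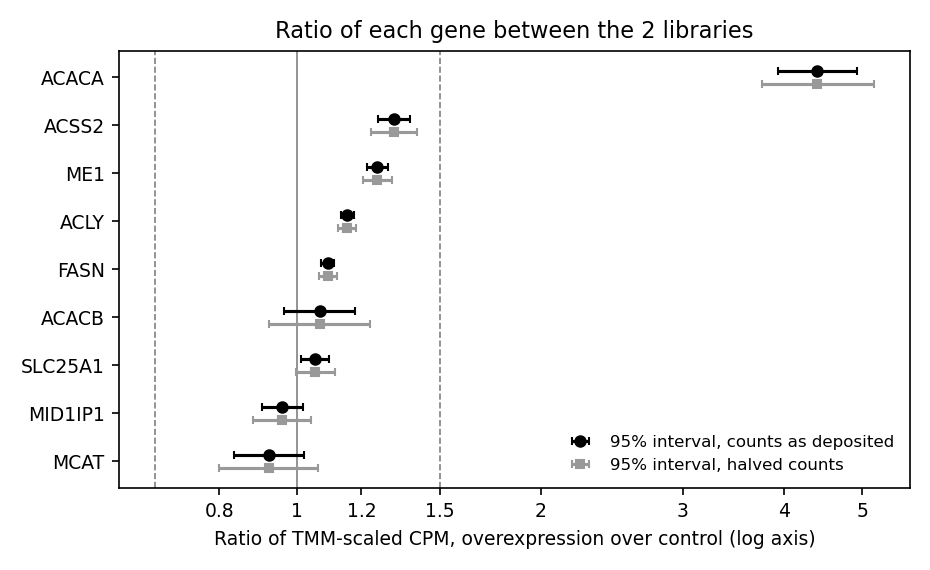
Ratio of TMM-scaled CPM between the 2 libraries for each gene (log axis), with 95% counting intervals from the counts as deposited (black) and from halved counts (grey); the solid line is 1 and the dashed lines are 1.5-fold in either direction. ACACA, at 4.40, is the single gene beyond 1.5-fold, and both intervals of ACACB, MID1IP1 and MCAT and the grey one of SLC25A1 include 1.

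The transcript of the citrate carrier was nearly level between the libraries. SLC25A1 (ENSG00000100075, GRCh38 chromosome 22, 19175575 to 19178830, minus strand) had 4719 counts in control cells and 5480 in IGF2BP3 cells. Its ratio was 1.05 (1.01 to 1.09), and with halved counts the interval, 0.995 to 1.11, included 1.

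Both cytosolic sources of acetyl-CoA were higher in IGF2BP3 cells. ACLY (ENSG00000131473, chromosome 17, 41866908 to 41930542, minus strand), the citrate lyase, had 20301 counts in control cells and 25839 in IGF2BP3 cells. The halved-count interval of its 1.15-fold ratio was 1.12 to 1.18, and 88.0% of measured genes had a lower log2 ratio. ACSS2 (ENSG00000131069, chromosome 20, 34872146 to 34927962, plus strand), the acetate-dependent synthetase, had 3090 and 4496 counts. Its ratio of 1.32 had a halved-count interval of 1.23 to 1.41, and 97.1% of measured genes had a lower log2 ratio. The interval of ACSS2 lay wholly above that of ACLY. Per length, ACLY was 6.62-fold above ACSS2 in control cells and 5.79-fold in IGF2BP3 cells. ACSS2 overlaps GGT7 on the opposite strand, which had 457 and 592 counts. The sources used here do not state whether strand was used in counting, so reads of the 2 genes may not be fully separated.

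The carboxylases differed from each other. ACACA (ENSG00000278540, chromosome 17, 37084988 to 37406818, minus strand), the cytosolic form, had 380 counts in control cells and 1847 in IGF2BP3 cells. These equal 8.77 and 38.6 CPM, a ratio of 4.40 (3.94 to 4.93, or 3.76 to 5.17 with halved counts). Only 18 of the measured genes had a higher log2 ratio. ACACB (ENSG00000076555, chromosome 12, 109116595 to 109268226, plus strand), the mitochondrial-surface form, had 714 and 840 counts, a ratio of 1.06 with an interval of 0.963 to 1.18. The ACACA share of the summed carboxylase FPKM was 37.2% of 1.81 in control cells and 71.0% of 4.16 in IGF2BP3 cells. In the authors' deposited table the log2 fold change is 2.13 for ACACA and 0.08 for ACACB.

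**Figure D3:**
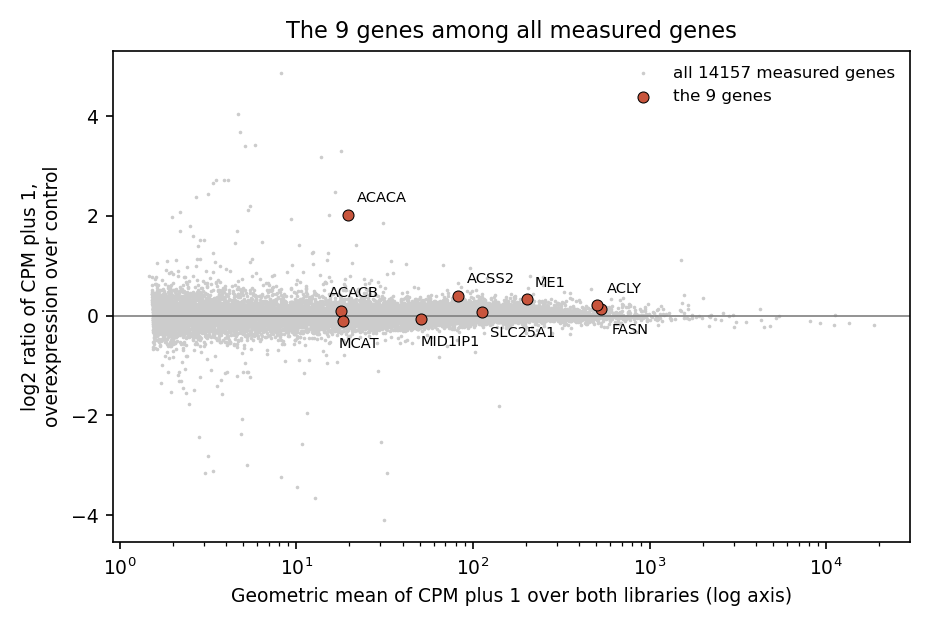
log2 ratio of CPM plus 1 against the geometric mean of CPM plus 1 over both libraries (log axis) for the 14157 measured genes (grey) and the 9 genes (red). ACACA, at 2.02, stands outside the band of genes of like abundance, and the other 8 lie between -0.11 and 0.39.

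The genes around ACACA at 17q12 also differed, in both directions. Of 9 other measured genes within 1 Mb of ACACA, 3 were at least 1.5-fold different on the scale of CPM plus 1, where 1.66% of all measured genes were. SYNRG, a trafficking adaptor, had 571 counts in control cells and 318 in IGF2BP3 cells, a ratio of 0.504 (0.438 to 0.579). GGNBP2 had 799 and 488 counts, a ratio of 0.553 (0.493 to 0.620). The pseudogene NPEPPSP1 had 18 and 99 counts, a ratio of 4.98 (2.99 to 8.75), and was the 1 neighbour past 2-fold on the scale of CPM plus 1, beside 0.678% of measured genes; its reads may be shared with its parent gene, so its value is uncertain. By their plain ratios SOCS7, with 51 and 108 counts and a ratio of 1.92 (1.36 to 2.73), and MRM1, with 111 and 79 counts and a ratio of 0.644 (0.477 to 0.868), also lay past 1.5-fold, and DHRS11, with 33 and 54 counts, had a ratio of 1.48 (0.943 to 2.36). TADA2A, which starts next to ACACA on the opposite strand, had 108 and 112 counts, a ratio of 0.939 (0.714 to 1.23). MRPL45 and DDX52 had ratios of 1.01 and 0.986. The windows of the other 8 members held 216 measured genes in all, and 1 of these was 1.5-fold different.

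The same region was also thin in measured genes. Of 32 protein-coding genes that GENCODE release 29 places within 1 Mb of ACACA, 8 were measured (25%), against 58.2% of all annotated protein-coding genes and 39.0% to 83.3% in the windows of the other members. The 9 measured neighbours had a median of 0.928 FPKM in control cells, below the 1.52 to 6.71 FPKM of the other windows. Of the 31-base words of ACACA transcripts, 1.05% also occurred in a transcript of another gene on the primary assembly. Sequences of alternate loci and patches were not used here. The part of these regional values in the ACACA ratio was not tested.

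**Figure D4:**
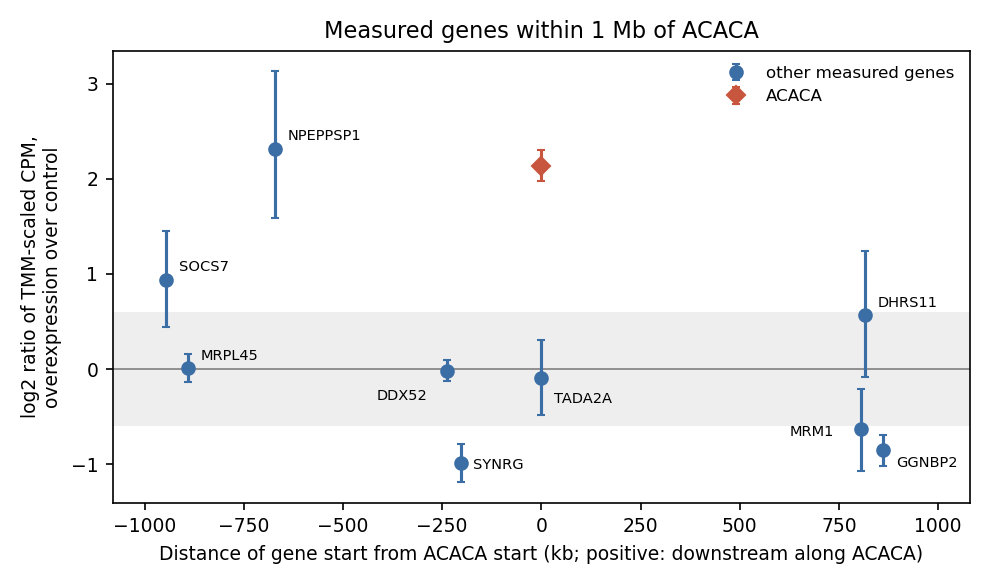
log2 ratio of TMM-scaled CPM, without a pseudocount, for ACACA (red) and the 9 other measured genes within 1 Mb of it (blue), by the distance of each gene's start from that of ACACA in kb; bars are 95% counting intervals and the grey band is 1.5-fold in either direction. SYNRG, GGNBP2 and MRM1 lie below the band while ACACA, NPEPPSP1 and SOCS7 lie above it, and TADA2A, at the same position as ACACA, lies near 0.

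MID1IP1 (ENSG00000165175, chromosome X, 38801432 to 38806537, plus strand), which promotes carboxylase polymerisation, had 2207 counts in control cells and 2334 in IGF2BP3 cells. Its ratio was 0.957 (0.903 to 1.02). Its paralog THRSP was at 2 counts and 0. Per length MID1IP1 exceeded ACACB by 9.29-fold in control cells and by 8.35-fold in IGF2BP3 cells.

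FASN (ENSG00000169710, chromosome 17, 82078333 to 82098332, minus strand), the synthase, was counted 22083 times in control cells and 26594 times in IGF2BP3 cells, and the counting interval of its 1.09-fold ratio was 1.07 to 1.11. Its log2 ratio of 0.12 was the median of the 9 genes, and 77.3% of all measured genes had a lower one. None of the 57 other measured genes within 1 Mb of FASN was 1.5-fold different, beside 1.66% of all measured genes. The ratios of ACLY, ME1, ACSS2 and ACACA were all larger than that of FASN, with intervals wholly above its interval, also with halved counts. That of SLC25A1 overlapped it. The genes nearest to FASN by level, by distance in log2 of FPKM plus 1 over the 2 libraries, were APLP2, ACTR3, BTBD1, NRDC and KDELR2, at distances of 0.04 to 0.05. APLP2 was at 53.5 and 59.1 FPKM.

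ME1 (ENSG00000065833, chromosome 6, 83210389 to 83431071, minus strand), the cytosolic malic enzyme, had 7762 counts in control cells and 10772 in IGF2BP3 cells. Its ratio of 1.26 had a halved-count interval of 1.21 to 1.31. Per length it was level with FASN in control cells, at 0.982 times FASN, and at 1.13 times FASN in IGF2BP3 cells. The mitochondrial malic enzyme ME2 had 6672 and 7336 counts, a ratio of 0.995 (0.963 to 1.03), and ME3 had 2 and 0.

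MCAT (ENSG00000100294, chromosome 22, 43132206 to 43143394, minus strand), the mitochondrial malonyl transferase, had 786 counts in control cells and 801 in IGF2BP3 cells. Its ratio of 0.923 had an interval of 0.835 to 1.02. FASN exceeded it per length by 7.20-fold in control cells and by 8.51-fold in IGF2BP3 cells.

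Around these 9 genes, 8 lists of pathway genes held 106 further measured genes. None was 1.5-fold different, beside 1.66% of all measured genes. At least 1.2-fold higher were 7, beside 7.49%, and at least 1.2-fold lower was 1, beside 5.74%. Their median log2 ratio was 0.05, with 66 above 0 and 40 below, beside 51.1% of all measured genes above 0. ACACA was thus the 1 gene of the whole set past 1.5-fold.

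Upstream, a list of citrate, pyruvate and acetate steps, mostly mitochondrial but with the cytosolic IDH1 and ACO1, had 16 measured genes. Their median log2 ratio was 0.03, with 10 above 0 and 6 below, beside 51.1% of all measured genes above 0. The acetate synthetase of mitochondria, ACSS1, was at a log2 ratio of 0.24, the cytosolic isocitrate dehydrogenase IDH1 at 0.21 and pyruvate carboxylase PC at 0.20. The ratio interval of PC, 0.997 to 1.39, included 1, as did that of ACSS1 with halved counts, 0.967 to 1.51. Citrate synthase CS had 22338 counts in control cells and 23977 in IGF2BP3 cells, a ratio of 0.972 (0.954 to 0.990). The pyruvate dehydrogenase subunit PDHA1 had a ratio of 0.942 (0.912 to 0.974). The cytosolic aconitase ACO1 had a ratio of 1.10 (1.06 to 1.14).

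The list of NADPH supply, which also holds the mitochondrial ME2, NNT and MDH2, had 14 measured genes, ME1 among them. Of these, 10 were above a log2 ratio of 0, beside 51.1% of all measured genes. The median of the 14 was 0.07. IDH1 had a ratio of 1.16 (1.13 to 1.19) and PGD, an NADPH-producing dehydrogenase, one of 1.12 (1.09 to 1.14). ME1 had the highest ratio of this list.

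Genes that control the carboxylase and malonyl-CoA were evenly split, 9 above and 9 below 0, beside 51.1% of all measured genes above 0. The median log2 ratio of the 18 was 0.00. STRADA, a partner of the kinase STK11, stood at a log2 ratio of 0.19, the deacetylase SIRT3 at -0.16 and BRCA1, which binds phosphorylated ACACA, at 0.15. The ratio interval of STRADA, 0.994 to 1.36, included 1, as did that of SIRT3 with halved counts, 0.772 to 1.02. HLCS, which attaches biotin to the carboxylases, had 2049 and 2263 counts, a ratio of 1.00 (0.941 to 1.06). Malonyl-CoA decarboxylase MLYCD was low, with 69 and 77 counts. CPT1A, the malonyl-CoA-sensitive gate of fatty acid oxidation, had a ratio of 0.963 (0.939 to 0.988). The AMP-activated kinase subunit PRKAA1, whose kinase inactivates the carboxylases, had a ratio of 1.05 (1.02 to 1.09).

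Transcriptional regulators of lipogenesis had a median log2 ratio of 0.06 over 19 genes, with 11 above 0, beside 51.1% of all measured genes, and 3 at least 1.2-fold higher, beside 7.49%. These 3 were the SREBP retention factors INSIG1, at a log2 ratio of 0.38, and INSIG2, at 0.31, and the transcription factor SP1, at 0.29. SREBF1, a main activator of FASN and ACACA, had 3091 counts in control cells and 3406 in IGF2BP3 cells, a ratio of 0.998 (halved-count interval 0.931 to 1.07). SREBF2 had a ratio of 1.05 (1.02 to 1.09). MLXIPL, the carbohydrate response factor, had 368 and 344 counts, a ratio of 0.846 (0.728 to 0.983), whose interval included 1 with halved counts (0.683 to 1.05).

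Genes of the FASN cofactor, of product release and of protein turnover had a median log2 ratio of 0.01 over 11. PANK3, a pantothenate kinase of CoA synthesis, was at a log2 ratio of 0.26, and PPCDC and PANK1, of the same pathway, were each at 0.10. The ratio intervals of PPCDC, 0.957 to 1.22, and PANK1, 0.991 to 1.17, included 1. AASDHPPT, which loads the phosphopantetheine arm onto FASN, had 3721 and 4040 counts, a ratio of 0.983 (0.940 to 1.03). In mitochondrial fatty acid synthesis, MCAT among 9 measured genes, the median log2 ratio was -0.03. Above 0 were 3 and below 6, beside 51.1% of all measured genes above 0. LIPT2 was at a log2 ratio of -0.33 from 159 and 130 counts, LIPT1 at -0.12 and CBR4 at -0.07. The intervals of LIPT1, 0.744 to 1.09, and CBR4, 0.899 to 1.01, included 1, as did that of LIPT2 with halved counts, 0.528 to 1.05.

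A list of other users of cytosolic acetyl-CoA also holds fatty acid elongases, which use malonyl-CoA made from it. Of its 13 measured genes, 9 were above a log2 ratio of 0, beside 51.1% of all measured genes. The median of the 13 was 0.08. HMGCS1, an enzyme of sterol synthesis, was furthest from 0, at a log2 ratio of 0.55, and the elongase ELOVL5 was at 0.22. ACAT2, the cytosolic thiolase that joins acetyl-CoA units, was at 1.15 times its control level (halved-count interval 1.10 to 1.21). Downstream of FASN, 10 of 11 measured genes of desaturation and esterification were above a log2 ratio of 0, beside 51.1% of all measured genes. The median of the 11 was 0.12. ACSL4, a fatty acyl-CoA synthetase, was at a log2 ratio of 0.40, DGAT2, which completes triglycerides, at -0.23, and LPIN1, a phosphatidate phosphatase, at 0.19. SCD, a desaturase that acts downstream of FASN, had 49613 and 59618 counts.

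**Figure D5:**
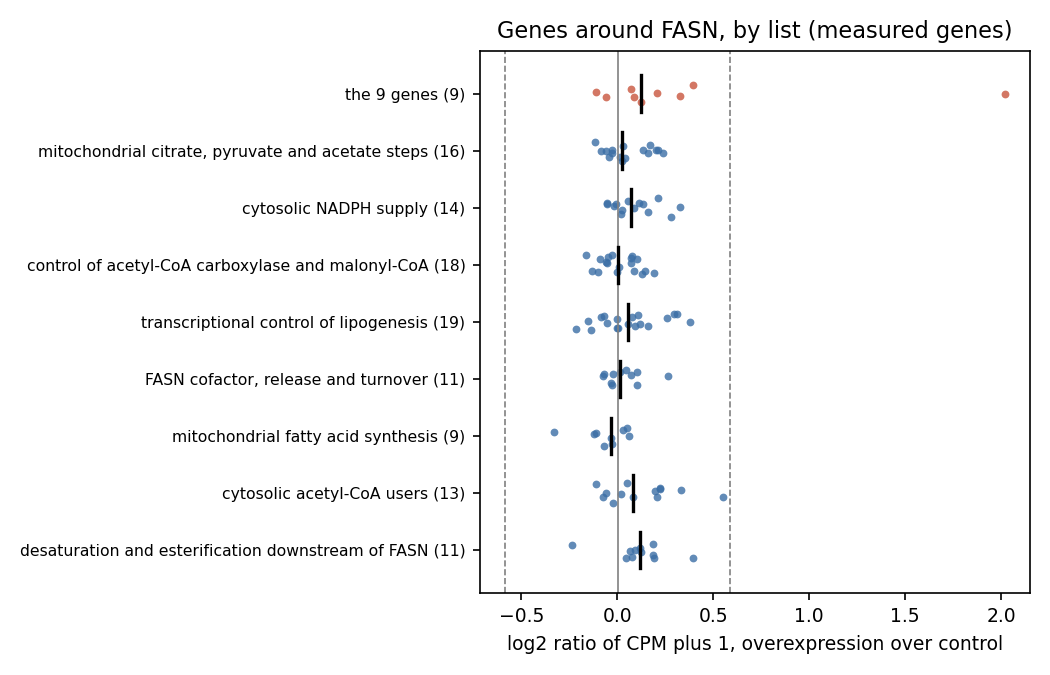
log2 ratio of CPM plus 1 for the measured genes of each list (points; number in brackets), with the list's median (black bar), the median of all measured genes (solid line) and 1.5-fold in either direction (dashed lines). ACACA is the single point beyond the dashed lines, and medians run from -0.03 for mitochondrial fatty acid synthesis to 0.12 for the 9 genes; genes in more than 1 list are drawn in each.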

How the data were processed

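Poly(A) RNA of 1 control and 1 IGF2BP3-overexpressing culture was sequenced from dUTP-marked libraries, per the labels' protocols. The authors deposited whole-number counts per gene and FPKM values, per the file headers, and a log2 fold change of their own. The submitters' processing notes name GRCh38; how reads were aligned and counted is not given in the sources used here. Counts were scaled by TMM (edgeR 4.0.16, R 4.3.3), and log2 ratios taken of CPM plus 1 for 14157 genes reaching 50 counts summed over the pair of libraries. Intervals are 95% exact counting intervals (scipy 1.17.1), and the script was tested on simulated data. Reads carry no molecular identifiers, so intervals may be too narrow. Positions are from GENCODE release 29 and 250-base promoter windows from RefSeq. The 9 genes and the lists were chosen with earlier results of these data known. Named beside the 9 were IGF2BP3, the 3 genes furthest from 0 in each list, neighbours at least 2-fold different within 1 Mb and the 5 genes nearest to FASN in level; some genes this rule names are not reported here. Other genes named, among them the remaining neighbours of ACACA, the CS, ACO1, PDHA1, HLCS, MLYCD, CPT1A, PRKAA1, SREBF1, SREBF2, MLXIPL, AASDHPPT, ACAT2, SCD, ME2, ME3 and THRSP values and the markers, were chosen after their values were seen.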

Additional observations from a re-analysis of the deposited data

How the results depend on the processing

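The ACACA log2 ratio of 2.02 was 1.66 with a pseudocount of 5 CPM and 1.24 with FPKM plus 1, where the added constant weighs more. FASN, at 0.12, stayed within its counting interval under each of the 5 settings tried. These were library totals, DESeq2 1.42.0 size factors, pseudocounts of 0.1 and 5 CPM, and FPKM plus 1. The median of the 9 genes was the FASN value under each of them, so it is not a separate check. The count of 1 gene past 1.5-fold was 3 with a threshold of 1.2-fold and 0 without ACACA, an alternative chosen after seeing the data. It was 1 under the other alternatives. All 9 genes passed each count minimum (10, 50 and 200), so these moved nothing, and summing rows of a symbol changed nothing because each had 1 row. No paired analysis was possible because each group has 1 library. The counting intervals of ACACB, MCAT and MID1IP1 include 1, and that of SLC25A1 does with halved counts; with no replicate, no difference here can be set against the spread between cultures.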

Other observations

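Beside ACACB, the transcript AC007637.1, which overlaps it on the same strand, had 4 counts in control cells and 23 in IGF2BP3 cells. ACACB itself differed little. Both values are of single libraries. AC007637.1 was named after its values were seen.

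Over all listed genes, 51 symbols had several gene IDs, 314 rows in all. Of their measured rows 1 was at least 2-fold different, and of their sums 1. None of the 9 genes was among them.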
